A study of Mus musculus with 30 samples.

Results

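The genes followed here were 10 genes that mark the endothelium, the cell layer that lines blood vessels: *Pecam1*, *Cdh5*, *Kdr*, *Tek*, *Tie1*, *Flt1*, *Emcn*, *Cldn5*, *Esam* and *Sox17*. They were chosen by name as known markers of the cell type, with no threshold on a measured value, and are 10 of the 50833 genes in the count table. All 10 were counted in every library, from 89 to 209 counts for *Sox17* up to 1710 to 4292 counts for *Cdh5*, and all 10 passed the filter on low counts in every comparison.

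RNA, given as polyA RNA in the sample labels, was sequenced from wild-type Swiss Albino mouse forelimb buds, the early outgrowths that form the front limbs. Pregnant females were injected once at E10.5, either with Wnt-C59 (C59), an inhibitor of porcupine, the enzyme that attaches a lipid to WNT proteins so that they can be secreted, or with its solvent DMSO as control. In the study's methods the carrier of C59 also held methylcellulose and Tween, while controls received DMSO in PBS, so the carriers differed. Forelimb buds were dissected 1, 6, 12, 18 and 24 h later, which gave 10 groups of 3 libraries and 30 libraries in all. By the study's methods each biological replicate was a single pair of buds from embryos of either sex, so a library holds the RNA of all cell types of the bud, and the inhibitor reached the embryo through the mother and was not directed to any cell type.

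Endothelial cells form the first vessel network of the limb bud. Ligands of the VEGF family act through the receptor tyrosine kinases encoded by *Kdr* (VEGFR2) and *Flt1* (VEGFR1), angiopoietins act through TIE2, encoded by *Tek*, and *Tie1* encodes its partner receptor. Cell contacts are held by VE-cadherin (*Cdh5*), PECAM1, ESAM and the tight junction protein claudin 5 (*Cldn5*), while endomucin (*Emcn*) is a mucin-like surface protein of capillaries and veins and SOX17 is a transcription factor linked to arterial fate.

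The members that passed the test differed between time points. No member passed the test at 1 h. At 6 h *Flt1* was higher and *Tek* lower in C59 libraries, and at 12 h *Pecam1*, *Cdh5*, *Tie1*, *Kdr* and *Flt1* were higher by 1.20 to 1.34 times. None passed at 18 h, and *Kdr* was lower at 24 h. Of all genes tested, 2.75%, 19.6%, 47.5%, 7.08% and 6.44% passed at 1, 6, 12, 18 and 24 h. With each library left out in turn, the calls of *Tek* at 6 h and *Kdr* at 24 h were lost in 5 of 6 fits. That of *Flt1* at 12 h was lost in 4 of 6. No member passed the test with an absolute log2 fold change above 1, against 0.283%, 1.17%, 4.95%, 1.29% and 0.819% of all genes tested at 1, 6, 12, 18 and 24 h.

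Library totals ran from 18188636 to 38974885 counts, and in each of the 30 replicate pairs the counts differed beyond sampling noise (chi-square over its degrees of freedom 3.31 to 42.23). DMSO 6 h replicate 1 had 41.75 and 35.41 against the others of its group, and DMSO 18 h replicate 1 had 35.83 and 28.82. For DMSO 1 h replicate 1 the values were 20.75 and 22.83, and for C59 24 h replicate 2 they were 42.23 and 31.58. C59 18 h replicate 3 had 38.9 and 32.91. The C59 18 h library of replicate 3 stood apart from the others of its group in a way that followed GC content, and the C59 24 h library of replicate 1 less so, and results of the members at those times are therefore given with and without them. *Axin2*, a direct WNT target and the check on the treatment, was lower in C59 libraries, with log2 fold changes of -0.19 at 1 h, -1.97 at 6 h and -1.45 at 12 h (adjusted p = 0.0282, 7.55e-11 and 1.4e-07, edgeR with Benjamini-Hochberg adjustment). At 18 and 24 h its log2 fold changes of -0.16 and -0.08 did not pass the test (adjusted p = 0.333 and 0.507, edgeR).

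Levels of different genes were compared as FPKM, which corrects for transcript length. *Cdh5* was the highest member in all 10 groups, with a median of 21.9 FPKM (17.6 to 29.2 over the 30 libraries). *Pecam1* came second in every group (median 14.6 FPKM, 12.9 to 20.2) and *Cldn5* next (median 12.0 FPKM, 9.9 to 16.4). Libraries of *Pecam1* and *Cldn5* overlapped in 4 of the 10 groups, so the order of these neighbours was not always larger than the spread.

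Below them lay *Kdr* (median 10.1 FPKM), *Tie1* (8.93), *Emcn* (8.39) and *Esam* (7.74), whose order changed between groups and whose libraries often overlapped with those of a neighbour. *Tek* (median 3.3 FPKM), *Flt1* (3.11) and *Sox17* (3.03) were the lowest 3 in every group and exchanged places among themselves. In terms of the summed FPKM of the members, *Cdh5* made up 21.3% to 25.5% and *Tek* 2.06% to 4.27% in single libraries. The panel of members was therefore led by the junction genes *Cdh5*, *Pecam1* and *Cldn5*, while the junction gene *Esam* lay lower. *Tek*, *Flt1* and *Sox17* were at its lower end.

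**Figure D1:**
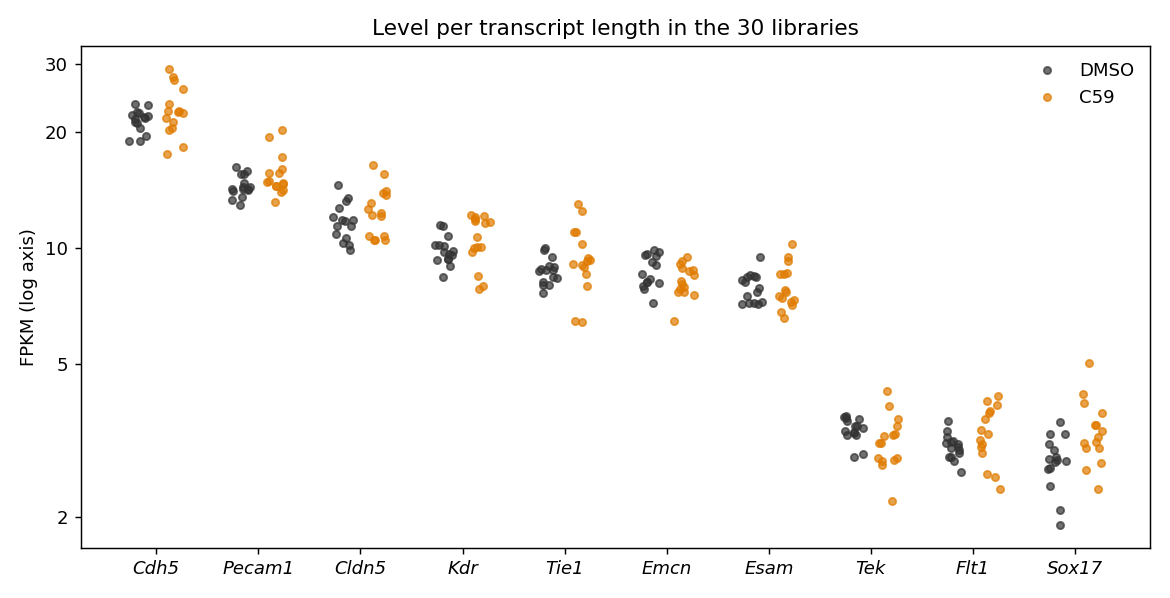
FPKM (log axis) of the 10 endothelial genes in the 30 libraries, DMSO in black and C59 in orange, ordered by the median over all libraries. Each point is 1 library, and *Cdh5* has the highest median (21.9) while *Tek*, *Flt1* and *Sox17* have the lowest medians (3.3, 3.11 and 3.03).

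The members lie at separate places in the genome (mm10, start and end as in the deposited table, the same as in GENCODE M21 for all 10). The VEGF receptor genes share chromosome 5, *Kdr* at chr5:75932827-75978458 and *Flt1* at chr5:147561604-147726011, both on the minus strand. The TIE receptor genes share chromosome 4, *Tek* at chr4:94739289-94874976 on the plus strand and *Tie1* at chr4:118471191-118490061 on the minus strand. The junction genes are *Cdh5* (chr8:104101625-104144511, plus), *Pecam1* (chr11:106654217-106750628, minus), *Esam* (chr9:37528078-37538319, plus) and *Cldn5* (chr16:18776847-18778262, plus). *Emcn* lies at chr3:137341067-137432185 on the plus strand and *Sox17* at chr1:4490931-4497354 on the minus strand. Genes annotated on the opposite strand overlap *Cdh5* (*Gm29682*) and *Sox17* (*Gm37587*), and with at most 1 and 2 counts in any library they could add little to either.

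The sequence before the RefSeq transcription start is shown for the VEGF and TIE receptor pairs. *Kdr*, *Flt1* and *Tie1* passed the test at 12 h and *Tek* did not, but whether these genes differed from each other was not tested. Each is the 250 bases before the RefSeq start on the gene's own strand (GRCm38.p6), written 5′ to 3′: *Flt1* at chr5:147726012-147726261, *Kdr* at chr5:75978456-75978705, *Tie1* at chr4:118489850-118490099 and *Tek* at chr4:94739039-94739288. RefSeq and GENCODE starts differ for *Tie1*: its GENCODE span runs to 118490061, so most of its window lies inside the gene as annotated there. The *Kdr* window overlaps the edge of its GENCODE span, which runs to 75978458. Capitals mark the letters AGGAAG (ETS) and AACAAT (SOX) on either strand. Shorter or variant forms of these motifs were not counted.
Flt1: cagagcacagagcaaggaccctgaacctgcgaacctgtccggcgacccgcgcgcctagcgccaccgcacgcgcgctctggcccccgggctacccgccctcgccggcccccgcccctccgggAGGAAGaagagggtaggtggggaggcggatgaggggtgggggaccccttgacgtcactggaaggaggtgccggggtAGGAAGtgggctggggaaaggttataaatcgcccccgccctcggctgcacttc
Kdr: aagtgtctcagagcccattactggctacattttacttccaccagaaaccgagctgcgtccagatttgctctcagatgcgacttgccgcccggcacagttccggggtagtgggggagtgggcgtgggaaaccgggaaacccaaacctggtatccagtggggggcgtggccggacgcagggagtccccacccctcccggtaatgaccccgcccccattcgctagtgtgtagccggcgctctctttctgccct
Tie1: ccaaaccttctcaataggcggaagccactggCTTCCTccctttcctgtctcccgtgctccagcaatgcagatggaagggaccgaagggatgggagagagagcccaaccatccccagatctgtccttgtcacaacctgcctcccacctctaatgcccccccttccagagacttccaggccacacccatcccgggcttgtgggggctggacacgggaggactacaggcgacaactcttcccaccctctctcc
Tek: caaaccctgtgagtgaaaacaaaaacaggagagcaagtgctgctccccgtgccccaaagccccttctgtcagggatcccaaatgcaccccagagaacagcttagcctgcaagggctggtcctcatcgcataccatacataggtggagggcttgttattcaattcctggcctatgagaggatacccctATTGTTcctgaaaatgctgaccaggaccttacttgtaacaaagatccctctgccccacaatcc
Transcription factors of the ETS family and SOX factors of the *Sox17* group are known regulators of endothelial genes. A promoter window was held for 6 of the 10 members (those 4, *Cldn5* and *Emcn*). The ETS letters occurred in 3 of the 6 (*Flt1*, *Emcn*, *Tie1*), against 29.5% of the 32851 windows of the same length over all genes, and the SOX letters in 2 of the 6 (*Emcn*, *Tek*), against 9.42%. The TCF/LEF motif CTTTGAT, which WNT-regulated sites can carry, was in none of the 6 (3.21% of all windows), and the GATA motif AGATAA in none of the 6 (9.99%). No motif contains another on either strand. Of the receptors, *Flt1* held 2 ETS matches, *Tie1* 1, *Tek* 1 SOX match and *Kdr* none. These are matches of letters in a short window, and no binding was measured here.

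At 1 h, 0 of the 10 members passed the test, against 2.75% of the 13076 genes tested (edgeR's quasi-likelihood test with a Benjamini-Hochberg adjusted p below 0.05), and 0 also had an unadjusted p below 0.05. DESeq2 also called 0. The log2 fold changes lay between -0.11 (*Esam*) and 0.12 (*Tek*). No member had groups that did not overlap, against 22.0% of all genes.

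At 6 h, 2 of the 10 members passed the test, against 19.6% of the 13100 genes tested (8.20% higher and 11.4% lower in C59). *Flt1*, the receptor that binds VEGF strongly and signals weakly, had 26.4, 28.5 and 25.8 CPM (counts scaled to library size with TMM factors) in DMSO and 31.9, 32.6 and 33.9 CPM in C59. All 3 C59 libraries lay above all 3 DMSO libraries. The fold change was 1.21 (log2 0.28 ± 0.07 SE, adjusted p = 0.00984, edgeR, n = 3 per group), and it held when each library was left out in turn (adjusted p from 0.00532 to 0.0432). The call was lost with all 30 libraries in 1 edgeR fit (adjusted p = 0.0601). It was also lost with limma on log2(FPKM + 1) or log2(FPKM + 0.1) (adjusted p = 0.0757 and 0.0847).

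*Tek*, the angiopoietin receptor, had 21.1, 20.9 and 20.1 CPM in DMSO and 18.6, 16.4 and 17.1 CPM in C59. The C59 libraries were the lower ones, without overlap. The log2 fold change was -0.26 ± 0.08 (adjusted p = 0.039, edgeR), and the call was lost without DMSO replicate 1, 2 or 3 or C59 replicate 2 or 3 (log2 -0.24, -0.25, -0.28, -0.21 and -0.24, adjusted p = 0.106, 0.0612, 0.0651, 0.139 and 0.11). *Kdr* was at 1.09 times its DMSO level and did not pass (adjusted p = 0.139), and *Emcn* had a log2 fold change of -0.20 (adjusted p = 0.109). Without DMSO replicate 2 both passed (log2 0.20 and -0.25, adjusted p = 0.011 and 0.0463, edgeR). The junction genes *Pecam1*, *Cdh5*, *Cldn5* and *Esam* had log2 fold changes between -0.06 and 0.05, none past the test. Groups did not overlap for 3 members (*Flt1*, *Tek*, *Emcn*), against 36.8% of all genes.

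At 12 h, 5 of the 10 members passed the test and all 5 were higher in C59 libraries, against 47.5% of the 13324 genes tested in either direction and 22.0% higher. All 10 log2 fold changes were above 0, with a median of 0.25, beside 0.02 over all genes tested. No member was lower, while 25.5% of all genes passed the test as lower.

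*Pecam1*, an adhesion molecule of endothelial contacts that platelets and leukocytes carry too, had 59.7, 59.1 and 56.7 CPM in DMSO and 82.2, 82.0 and 71.0 CPM in C59. The groups did not overlap, and C59 replicate 3 lay below the other C59 libraries. Its fold change of 1.34 was the largest of the members at this time (log2 0.42 ± 0.07, 95% interval 0.28 to 0.57, adjusted p = 0.000406, edgeR, n = 3 per group).

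*Cdh5*, the cadherin of endothelial adherens junctions, had 104, 110.4 and 99.7 CPM in DMSO and 144, 142 and 129 CPM in C59. Again every C59 library exceeded every DMSO library. The fold change was 1.32 (log2 0.41 ± 0.06, interval 0.28 to 0.53, adjusted p = 0.000207, edgeR).

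Both VEGF receptor genes passed the test. *Kdr*, the main signalling receptor of VEGF, had 74.9, 74.7 and 66.1 CPM in DMSO and 92.3, 92.2 and 86.7 CPM in C59, with no overlap (fold change 1.26, log2 0.33 ± 0.06, adjusted p = 0.000976, edgeR). *Flt1* had 27.2, 28.7 and 23.5 CPM in DMSO and 33.4, 34.0 and 28.1 CPM in C59. Here the groups overlapped, because C59 replicate 3 lay below DMSO replicate 2. The log2 fold change of 0.27 ± 0.10 passed narrowly (adjusted p = 0.0412, edgeR), and the call was lost without DMSO replicate 1 or 3 or C59 replicate 1 or 2 (log2 0.29, 0.19, 0.24 and 0.23, adjusted p = 0.0774, 0.155, 0.0932 and 0.121).

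The TIE receptor genes gave different results. *Tie1*, which encodes the orphan partner of TIE2, had 49.8, 49.8 and 44.7 CPM in DMSO and 66.7, 60.3 and 60.3 CPM in C59, without overlap (fold change 1.30, log2 0.375 ± 0.06, adjusted p = 0.000805, edgeR). *Tek* had 21.9, 19.7 and 20.7 CPM in DMSO and 22.6, 24.4 and 20.3 CPM in C59. Its groups overlapped and the log2 fold change of 0.11 ± 0.09 did not pass (interval -0.09 to 0.32, adjusted p = 0.327). Whether *Tie1* and *Tek* differed from each other was not tested.

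The other members at 12 h had groups that overlapped, with the exception of *Esam*. *Esam*, a junction adhesion molecule, had 18.7, 18.7 and 19.7 CPM in DMSO and 20.4, 24.3 and 22.0 CPM in C59, and missed the threshold (log2 0.23 ± 0.09, adjusted p = 0.0534, edgeR), but passed it without C59 replicate 1 (0.30, adjusted p = 0.0229). *Sox17* (log2 0.23, adjusted p = 0.234), *Cldn5* (0.21, adjusted p = 0.161) and *Emcn* (0.08, adjusted p = 0.447) did not pass in the edgeR test, and *Cldn5* passed without C59 replicate 3 (0.32, adjusted p = 0.0471). The interval of *Emcn* ran from -0.10 to 0.25 and that of *Cldn5* from -0.05 to 0.47, so a rise of the size seen for *Cdh5* lies within the second and not within the first. Groups did not overlap for 5 members, all higher in C59, against 57.1% of all genes in either direction and 27.2% higher.

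The plot of CPM by time gives every library of every member. Summed over the 10 genes, DMSO libraries at 12 h held 373.5 to 413.3 CPM and C59 libraries 466.3 to 519.1 CPM. In such bulk libraries a smaller or larger number of endothelial cells and less or more RNA per cell cannot be told apart.

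**Figure D2:**
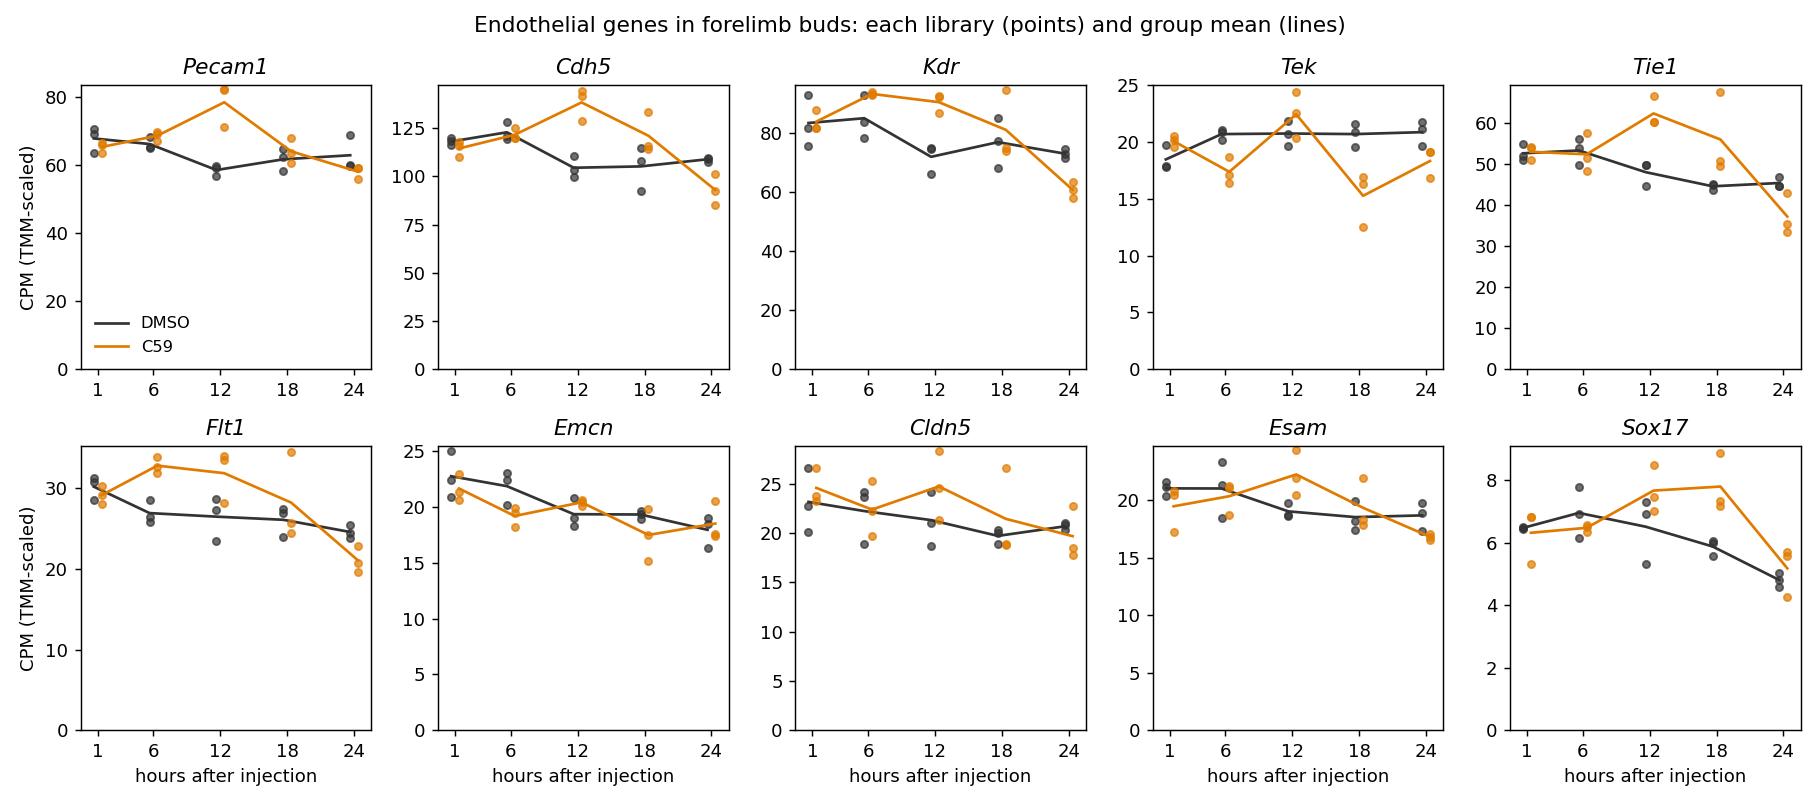
CPM (TMM-scaled) of each endothelial gene against hours after injection, with each library as a point and group means joined by lines, DMSO in black and C59 in orange; each axis starts at 0. At 12 h the C59 points of *Pecam1*, *Cdh5*, *Kdr* and *Tie1* lie above all DMSO points, and at 24 h the C59 points of 7 members lie below all DMSO points.

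At 18 h, 0 of the 10 members passed the test, against 7.08% of the 13413 genes tested. DESeq2 also called 0, 3 members had an unadjusted p below 0.05 and 3 had groups that did not overlap, against 34.2% of all genes. These were *Tek* (log2 -0.42 ± 0.13, adjusted p = 0.0942), *Tie1* (0.35 ± 0.13, adjusted p = 0.144) and *Sox17* (0.43 ± 0.15, adjusted p = 0.116, all edgeR).

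*Tie1* had 43.7, 45.1 and 45.2 CPM in DMSO and 49.6, 51.0 and 67.7 CPM in C59. *Tek* had 19.6, 21.6 and 20.9 CPM in DMSO and 16.9, 16.3 and 12.5 CPM in C59. In both genes C59 replicate 3 was the extreme library, high for *Tie1* and low for *Tek*. *Sox17* had 6.00, 5.59 and 6.05 CPM in DMSO and 7.34, 7.19 and 8.87 CPM in C59, with the same library highest.

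That library deviated from its group along GC content. Over 14039 genes the correlation between GC percent of the transcript and the deviation from the group mean was 0.607 for C59 18 h replicate 3, and -0.45 and -0.343 for replicates 1 and 2. Over the 10 members the same correlations were 0.853 for replicate 3, and -0.751 and -0.69 for replicates 1 and 2. The points share a library, and each set of deviations within a group sums to 0. *Emcn* has the lowest GC content of the members (40.7%) and *Cldn5* (60.5%) and *Tie1* (57.6%) the highest. Without this library the log2 fold changes were 0.19 for *Tie1* (adjusted p = 0.0807), -0.30 for *Tek* (adjusted p = 0.054) and 0.33 for *Sox17* (adjusted p = 0.135), *Cldn5* went from 0.14 to -0.05, and 0 members passed the edgeR test, beside 16.2% of all genes. With offsets for GC content, 1 member passed (*Tek*, log2 -0.39, adjusted p = 0.0282).

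**Figure D3:**
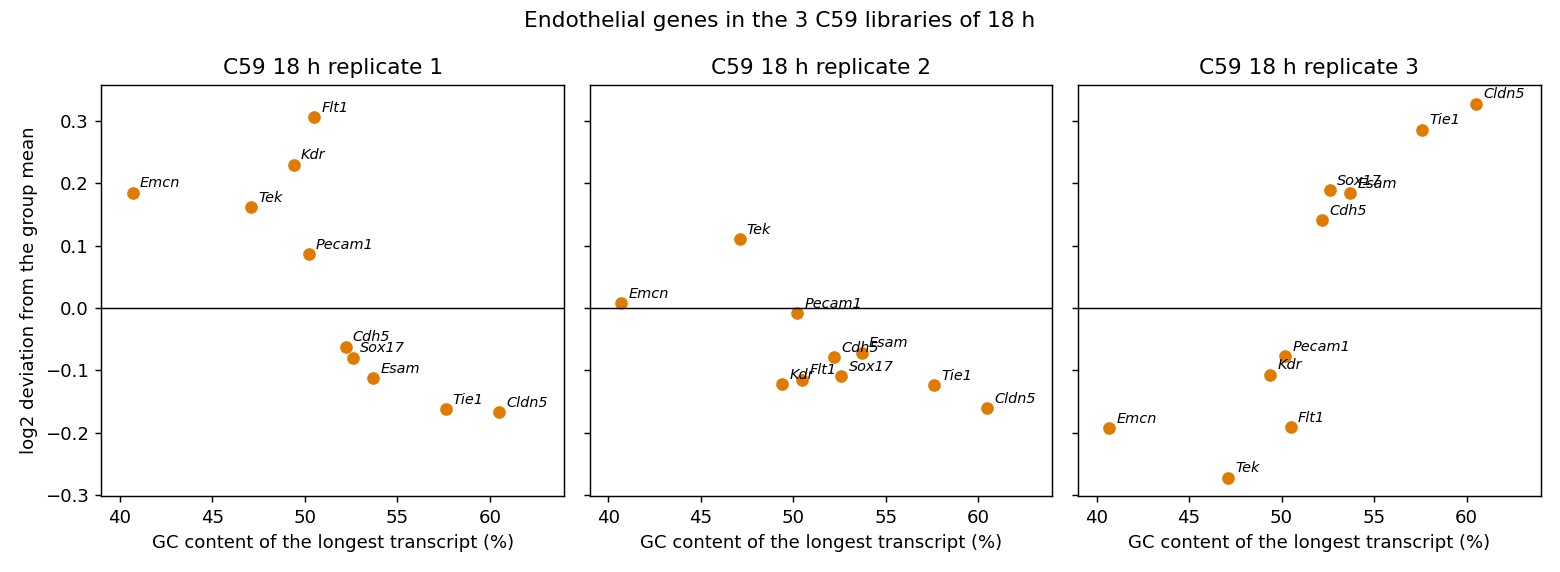
Deviation of each endothelial gene from the mean of the C59 18 h group (log2, y axis) against the GC content of its longest transcript (percent, x axis), 1 panel for each of the 3 libraries. In replicate 3 the GC-rich *Cldn5* and *Tie1* lie highest and *Tek* and *Emcn* lowest, while *Cldn5* and *Tie1* lie below 0 in replicates 1 and 2 (correlations over the members 0.853, -0.751 and -0.69 in replicates 3, 1 and 2).

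At 24 h, 1 of the 10 members passed the test, *Kdr*, lower in C59, against 6.44% of the 13675 genes tested in either direction and 3.56% lower. It had 74.6, 71.4 and 72.9 CPM in DMSO and 63.4, 58.1 and 60.6 CPM in C59. No C59 library reached the lowest DMSO library. The log2 fold change was -0.26 ± 0.06 (interval -0.40 to -0.12, adjusted p = 0.0342, edgeR). The call was lost without DMSO replicate 1, 2 or 3 or C59 replicate 2 or 3 (log2 -0.24, -0.27, -0.26, -0.22 and -0.25, adjusted p = 0.16, 0.0952, 0.127, 0.1 and 0.0606).

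Of the members, 8 had a log2 fold change below 0 at 24 h (median -0.16, beside 0.00 over all genes tested), and 7 had all C59 libraries below all DMSO libraries, against 27.7% of genes that did not overlap in either direction and 14.9% lower. *Cdh5* had 107, 109.8 and 109.3 CPM in DMSO and 101.1, 85.2 and 92.5 CPM in C59, and *Tie1* had 44.8, 46.9 and 44.8 CPM in DMSO and 43.0, 33.5 and 35.4 CPM in C59. For both genes C59 replicate 1 lay nearest to the controls. Their log2 fold changes of -0.22 and -0.28 missed the threshold (adjusted p = 0.074 and 0.0944, edgeR).

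C59 replicate 1 was also the library of 24 h whose deviations followed GC content most (correlation 0.401 over all genes). Without it 3 members passed as lower, *Cdh5* (log2 -0.29, adjusted p = 0.00714), *Tie1* (-0.40, adjusted p = 0.0068) and *Kdr* (-0.30, adjusted p = 0.0104, edgeR), beside 7.20% of all genes, and with GC offsets these 3 passed too. C59 replicate 2 had the largest chi-square values of this group. When that library was left out instead, *Kdr* was no longer called (log2 -0.22, adjusted p = 0.1, edgeR) and no other member passed. *Emcn* and *Sox17* were the members with values above 0 at this time (log2 0.05 and 0.11, adjusted p = 0.811 and 0.736).

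**Figure D4:**
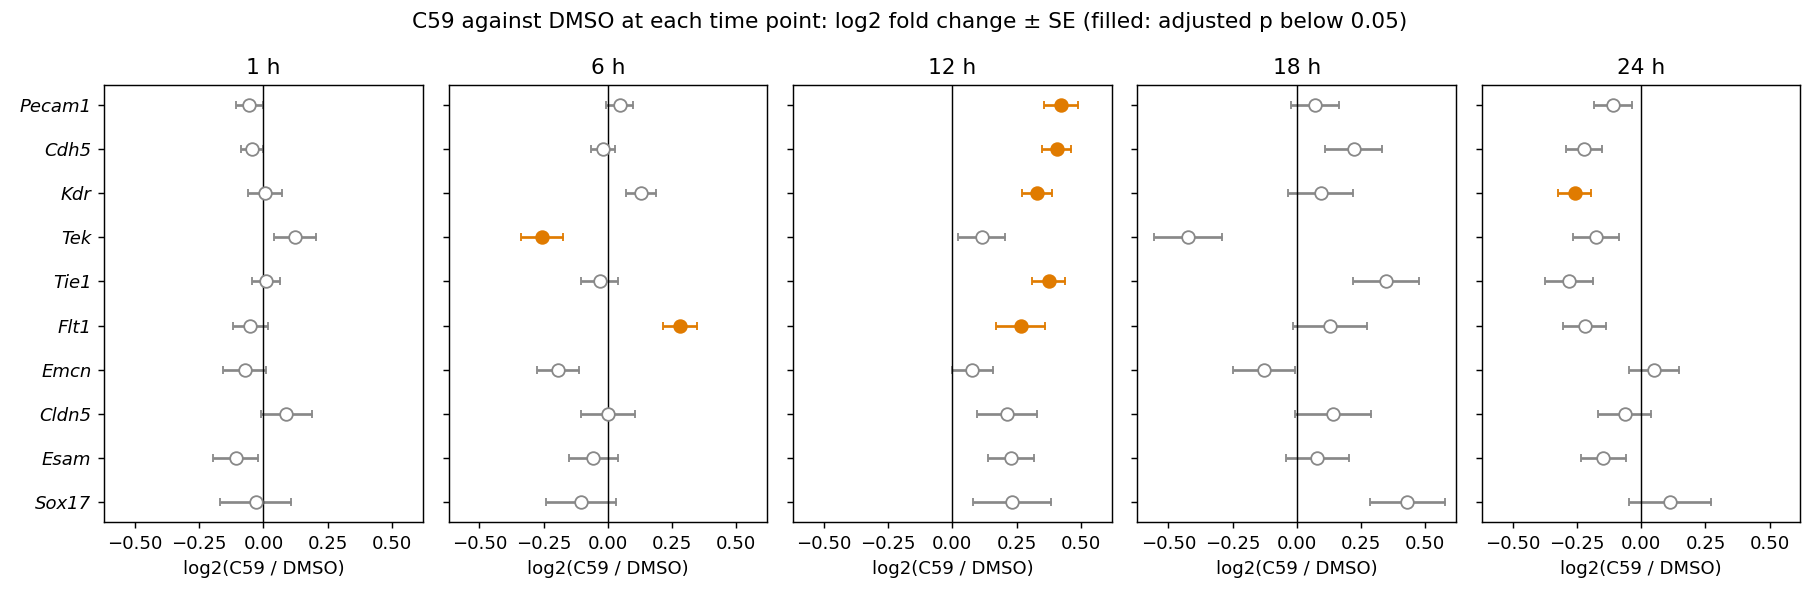
Log2 fold change of C59 against DMSO (x axis) with its standard error for the 10 endothelial genes at 1, 6, 12, 18 and 24 h, 3 libraries per group; filled points have an edgeR adjusted p below 0.05. All 10 values lie above 0 at 12 h and 8 lie below 0 at 24 h, when *Kdr* is the filled one.

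The change of the C59 effect from each time to the next was tested directly as a treatment by time term. From 1 to 6 h, 2 members changed, against 13.0% of all genes: the effect on *Flt1* rose by 0.33 on the log2 scale and that on *Tek* fell by 0.38 (adjusted p = 0.0207 and 0.0253, edgeR). The call of *Flt1* was lost without C59 1 h replicate 3, DMSO 6 h replicate 3 or C59 6 h replicate 3 (change 0.31, 0.30 and 0.31, adjusted p from 0.0507 to 0.0547), and that of *Tek* without DMSO 1 h replicate 2 or 3, C59 1 h replicate 1 or 2, DMSO 6 h replicate 1, or C59 6 h replicate 2 or 3 (change from -0.37 to -0.34, adjusted p from 0.0502 to 0.064). From 6 to 12 h, 4 members changed, all upwards, against 18.1% of all genes and 6.59% upwards. They were *Cdh5* (0.42 ± 0.07, adjusted p = 0.000915), *Tie1* (0.40 ± 0.10, adjusted p = 0.0115), *Pecam1* (0.37 ± 0.08, adjusted p = 0.00434) and *Tek* (0.37 ± 0.12, adjusted p = 0.039, edgeR). The median change of the members was 0.31, beside -0.01 over all genes. The 12 h difference of *Tek* itself had not passed, and the call of its change was lost without DMSO 6 h replicate 1 or 2, C59 6 h replicate 2 or 3, DMSO 12 h replicate 2 or 3, or C59 12 h replicate 1 or 2 (change from 0.32 to 0.39, adjusted p from 0.055 to 0.0931). *Kdr* passed without DMSO 6 h replicate 1 (0.27, adjusted p = 0.0405) and *Emcn* without DMSO 6 h replicate 2 (0.34, adjusted p = 0.0479).

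From 12 to 18 h, 0 members changed, against 8.49% of all genes, although 9 of the 10 values were below 0 (median -0.16) and 2 members had an unadjusted p below 0.05, *Pecam1* (-0.35, adjusted p = 0.0651) and *Tek* (-0.53, adjusted p = 0.0555, edgeR). DESeq2 called both (adjusted p = 0.0323 and 0.0269), and so did edgeR without C59 18 h replicate 3 (-0.32 and -0.415, adjusted p = 0.0445 and 0.0442). *Pecam1* also passed without C59 12 h replicate 3 (-0.42, adjusted p = 0.0385) and *Tek* without C59 18 h replicate 1 (-0.61, adjusted p = 0.0416). From 18 to 24 h, 1 member changed, *Tie1* (-0.64 ± 0.17, adjusted p = 0.0418, edgeR), against 6.96% of all genes. This call was lost without any 1 of the 3 DMSO 18 h libraries, any 1 of the 3 DMSO 24 h libraries, or C59 24 h replicate 2 or 3 (change from -0.65 to -0.56, adjusted p from 0.0715 to 0.117). *Cdh5* (-0.45, adjusted p = 0.0562) passed without DMSO 18 h replicate 2, C59 18 h replicate 3 or C59 24 h replicate 1 (-0.52, -0.37 and -0.52, adjusted p = 0.0445, 0.0414 and 0.0437). With GC offsets *Tie1* changed by -0.56 (adjusted p = 0.00248) and *Cdh5* joined it (-0.41, adjusted p = 0.0178). Neighbouring terms share the libraries of the time between them.

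In the control buds most members were lower at 24 h than at 1 h by counts. In DMSO libraries 24 h against 1 h, 6 members were lower and none higher, against 59.3% of the 13580 genes tested in either direction and 29.2% lower. *Sox17* had 6.48, 6.52 and 6.44 CPM at 1 h and 4.58, 4.80 and 5.03 CPM at 24 h, the largest decline among the members (log2 -0.43 ± 0.13, adjusted p = 0.0111, edgeR). *Emcn* (-0.35), *Flt1* (-0.30), *Tie1* (-0.21), *Kdr* (-0.195) and *Cdh5* (-0.12) were the others that passed. *Tek* was the member with a value above 0 (0.175 ± 0.08, adjusted p = 0.0809). On log2(FPKM + 1) with limma, *Sox17* was the 1 member that passed (-0.32, adjusted p = 0.0215), and the values of *Cdh5*, *Kdr*, *Tie1*, *Flt1* and *Emcn* were -0.04, -0.11, -0.09, -0.16 and -0.14 (adjusted p from 0.0777 to 0.433). The call of *Cdh5* was lost without DMSO 24 h replicate 1 or 3 (-0.11 and -0.12, adjusted p = 0.0692 and 0.054) and that of *Kdr* without DMSO 1 h replicate 3 (-0.11, adjusted p = 0.0788), while *Pecam1* passed without DMSO 24 h replicate 2 (-0.18, adjusted p = 0.0219), *Tek* without DMSO 1 h replicate 1 (0.23, adjusted p = 0.0488) and *Cldn5* without DMSO 1 h replicate 3 (-0.26, adjusted p = 0.0206).

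In C59 libraries 24 h against 1 h, 5 members were lower and none higher, against 54.1% of the 13510 genes tested and 25.7% lower. They were *Tie1* (-0.49), *Flt1* (-0.46), *Kdr* (-0.45), *Cldn5* (-0.30) and *Cdh5* (-0.29). All 10 values were below 0, with a median of -0.28 beside -0.18 in DMSO libraries, and the difference between the declines was not tested for this span. The call of *Cldn5* was lost without replicate 3 of C59 1 h or replicate 2 or 3 of C59 24 h (-0.25, -0.23 and -0.26, adjusted p = 0.112, 0.103 and 0.0906), while *Pecam1* passed without C59 24 h replicate 1 (-0.17, adjusted p = 0.0282), *Emcn* without C59 24 h replicate 3 (-0.28, adjusted p = 0.0303) and *Esam* without C59 1 h replicate 2 (-0.28, adjusted p = 0.0424).

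Further endothelial genes were read from lists of general knowledge. At 12 h, of 24 further surface, junction and signalling genes, 13 were higher and none lower (median log2 fold change 0.34), beside 22.0% of all genes tested higher and 25.5% lower. *Jam2*, a junction adhesion molecule, *Adgrl4*, an adhesion GPCR of vessels, and *Clec14a*, an endothelial lectin, changed most, by 0.73 ± 0.22, 0.65 ± 0.17 and 0.64 ± 0.10 (adjusted p = 0.0217, 0.00911 and 0.00036, edgeR). Of 17 tested endothelial transcription factors, 8 were higher and 2 lower, beside 47.5% of all genes that passed in either direction. The ETS factors *Erg* (0.49 ± 0.08, adjusted p = 0.000443) and *Fli1* (0.25 ± 0.07, adjusted p = 0.0103) rose, *Foxc2* (1.06 ± 0.15) and the lymphatic regulator *Prox1* (0.80 ± 0.20) rose more, *Lmo2*, a factor of early vessel and blood development, fell by 0.94, and the SOX factors *Sox7* and *Sox18* had 0.16 and -0.03 (adjusted p = 0.287 and 0.774, edgeR). *Foxc2* and *Lmo2* are known in limb mesenchyme as well.

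Of the 13 ligands and receptors around the members, 2 were higher and 2 lower at 12 h, a smaller share than the 47.5% of all genes, with *Ptprb*, the phosphatase that acts on TIE2, at 0.78 ± 0.15 (adjusted p = 0.00185), the ligand *Vegfb* at -0.41 ± 0.07 (adjusted p = 0.000484) and the co-receptor *Nrp2* at -0.25 ± 0.05 (adjusted p = 0.00183, edgeR). *Vegfa*, the main ligand of KDR and FLT1, did not pass the test at any of the 5 times (log2 between -0.21 and 0.22). Of 10 arterial and Notch linked genes 4 were higher and 1 lower (*Notch1* 0.72, *Gja4* 0.55, *Sema3g* 0.46), and of 8 venous and lymphatic genes 4 were higher and none lower (*Prox1* 0.80, *Stab1* 0.46, *Nr2f2* 0.40). In either direction, the shares that passed in the arterial and venous lists lay near that of all genes. By direction, 22.0% of all genes were higher and 25.5% lower. *Prox1*, *Nr2f2*, *Aplnr* and *Flt4* stand in more than 1 list.

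At 1 h 1 gene of the endothelial lists passed, *Hey1* (-0.27 ± 0.06, adjusted p = 0.0204, edgeR), beside 2.75% of all genes. At 6 h, 6 of 17 transcription factors were higher and none lower, beside 8.20% of all genes higher and 11.4% lower, led by *Prox1* (1.01), *Foxc2* (0.63) and *Gata2* (0.55) and with *Sox7* among them (0.33, adjusted p = 0.0139, edgeR). The 24 further endothelial genes had 3 higher and 1 lower, the von Willebrand factor gene *Vwf* (-0.44). The 13 ligands and receptors had 2 higher and 3 lower, the 10 arterial genes 3 higher and 1 lower and the 8 venous and lymphatic genes 2 higher and 1 lower.

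At 18 h *Angpt1*, which encodes the activating ligand of TIE2, had 11.9, 15.6 and 13.3 CPM in DMSO and 7.39, 7.94 and 3.45 CPM in C59. The C59 libraries were lower without overlap, with replicate 3 lowest. The log2 fold change was -1.11 ± 0.26 (adjusted p = 0.0395), and without that library -0.83 ± 0.14 (adjusted p = 0.00771, edgeR). *Angpt2* did not pass at any time. Of the other lists at 18 h, the transcription factors had *Lmo2* and *Hey1* lower (-0.72 and -0.67), the further endothelial genes *Vwf* higher (0.87) and the venous list *Stab1* higher (0.57), beside 7.08% of all genes. Without C59 replicate 3, when 16.2% of all genes passed, the transcription factors had 3 higher and 2 lower, the further endothelial genes 2 higher, the arterial genes 2 higher and 1 lower and the venous list 1 higher.

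At 24 h 3 of the 13 ligands and receptors were lower and none higher, beside 6.44% of all genes in either direction and 3.56% lower. They were *Nrp2* (-0.52 ± 0.06, adjusted p = 0.000498), *Flt4*, the VEGF-C receptor (-0.36 ± 0.10, adjusted p = 0.0454), and *Plxnd1*, a semaphorin receptor (-0.22 ± 0.05, adjusted p = 0.0327, edgeR), with a list median of -0.22. Of the 24 further endothelial genes, *Cd93* and *Mmrn2* were lower (-0.41 and -0.36) and *Gpr4* was higher (0.44). Without C59 replicate 1, when 7.20% of all genes passed, *Gpr4* was no longer called (0.38, adjusted p = 0.0561, edgeR), while 2 of these 24 genes and 3 of the 13 ligands and receptors were lower, 2 of 7 venous and lymphatic genes were lower (1 with that library) and 1 of 17 transcription factors was higher (none with it).

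Markers of other cell types moved in the same libraries, and their counts at 12 h stand beside 47.5% of all genes that passed, 22.0% higher and 25.5% lower. At 12 h, 12 macrophage markers summed to 42.2 to 47.27 CPM in DMSO and 68.64 to 71.5 CPM in C59 (6 of 12 higher), 7 megakaryocyte and platelet markers to 21.55 to 24.33 and 30.4 to 38.35 CPM (2 of 6 tested higher), and 10 surface ectoderm markers to 328.4 to 366.7 and 443.9 to 600.0 CPM (8 of 10 higher). Limb mesenchyme markers, 12 genes that mark the bulk of the bud, summed to 2974 to 3007 CPM in DMSO and 2579 to 2792 CPM in C59, with 7 lower and 3 higher. This list includes *Msx2*, which the paper reports as a BMP target quickly reduced after C59. Erythroid markers overlapped between groups (5436 to 7870 and 6827 to 9770 CPM, 1 of 10 higher). Mural cell and pericyte markers, which belong to the cells that wrap vessels, summed to 552.6 to 601.8 and 610.4 to 692.6 CPM (4 of 9 tested higher, 1 lower), led by *Kcnj8* (1.79), *Acta2* (1.48) and *Cspg4* (0.96), while *Pdgfrb* was lower (-0.19, adjusted p = 0.00917, edgeR). Muscle progenitor markers had 4 of 9 higher and 4 lower (237.1 to 257.7 and 241.0 to 301.8 CPM), and Schwann cell precursor and crest markers 3 of 6 higher (63.36 to 88.06 and 108.4 to 147.9 CPM). Of these lists, 1 gene at most was at 0 in any library of 12 h, so markers of every type were present in all libraries. The part of these cell types in the levels of the endothelial genes was not tested.

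**Figure D5:**
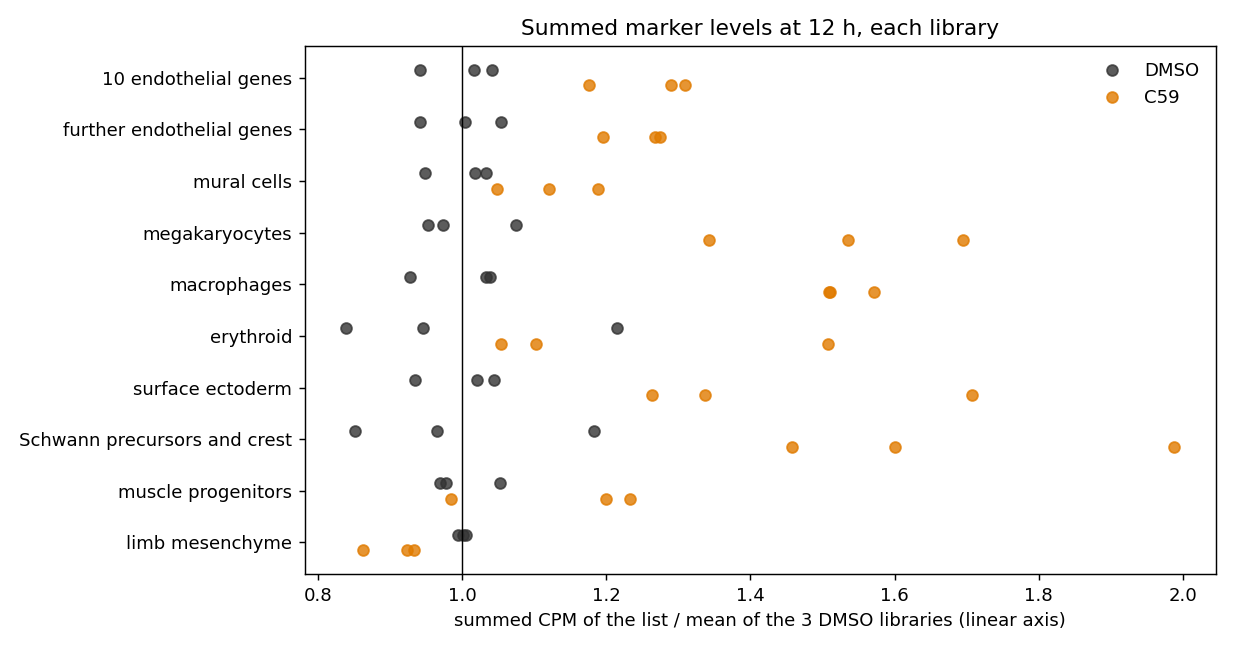
Summed CPM of marker lists in each 12 h library, divided by the mean of the 3 DMSO libraries (x axis, linear), DMSO in black and C59 in orange. C59 points lie to the right of all DMSO points for the 10 endothelial genes (466.3 to 519.1 against 373.5 to 413.3 CPM), macrophages, megakaryocytes, ectoderm, mural cells and Schwann precursors, and to the left for limb mesenchyme.

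At 24 h the summed members ran from 393.6 to 402.9 CPM in DMSO and from 333.2 to 366.9 CPM in C59, while 6.44% of all genes passed. Macrophage markers summed to 68.68 to 75.41 CPM in DMSO and 79.32 to 90.05 CPM in C59 (2 of 12 higher, 1 of 12 without C59 replicate 1), and surface ectoderm markers to 402.2 to 415.3 and 488.1 to 535.1 CPM (4 of 10 higher). Limb mesenchyme markers summed to 3162 to 3226 and 2782 to 2954 CPM (2 of 12 lower, 4 of 12 without that library), and muscle progenitor markers to 389.6 to 422.6 and 314.9 to 366.9 CPM (4 of 9 lower). Of the Schwann cell precursor and crest markers 2 of 6 were higher (3 of 6 without that library), with sums of 176.2 to 181.1 and 183.4 to 237.3 CPM. The part of these cell types in the 24 h levels of the members was not tested. *Pdgfrb* and *Notch3*, both mural, were lower (-0.31 and -0.34) and *Mcam* higher (0.37). At 1 h, when no member passed the test, 5 of 10 erythroid and 2 of 6 megakaryocyte markers were higher in C59, beside 2.75% of all genes that passed.

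Over all 30 libraries the 45 pairs of members had a median Pearson correlation of 0.468 of their log2 CPM, as a description of libraries that share treatment and time. As deviations from group means the median was 0.075, with 28 pairs above 0. Without the C59 18 h group it was 0.169 over 27 libraries, with 32 pairs above 0. *Tek* had the lowest correlation with the mean of the other 9 over all libraries (0.034), against 0.41 for *Emcn* and 0.579 to 0.858 for the remaining members. By deviations from group means *Tek* (-0.147) and *Esam* (-0.043) lay lowest, followed by *Emcn* (0.1), and *Pecam1* (0.484) and *Cdh5* (0.457) highest. These values include the C59 18 h group. Without it, the correlation of *Tek* with *Tie1* went from -0.529 to -0.15 and that with *Emcn* from 0.262 to -0.156.

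The genes most like the mean of the members over the 30 libraries, among 12531 genes with a mean of at least 1 CPM, were *St6gal1* (r = 0.889), *Ypel1* (0.876), *Myrf* (0.875), *Mmrn2* (0.869), *Hsd11b2* (0.865), *Qars* (0.85), *Ift140* (0.848), *Ets1* (0.839), *Bcl2l11* (0.838) and *Khnyn* (0.83). Of these, *Mmrn2* and *Ets1* were in the lists of endothelial genes. By deviations from group means the first were *Adarb1* (0.759) and *Mmrn2* (0.752), so *Mmrn2*, which encodes a glycoprotein of the vessel matrix, was near the top by both measures.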

How the data were processed

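RNA-seq data of 30 forelimb bud libraries were used, grouped by treatment and time as given in the sample labels. Adapters were removed by the authors with cutadapt 1.16, and STAR 2.7.0e aligned the reads to mm10 using a custom gene annotation. The deposited counts are raw counts of autosomal genes, without normalization, and the strand of counting is not given in the sources used here. The deposited FPKM values were computed by the authors with Cufflinks 2.2.1 and are scaled to transcript length and library size. Names and positions come from the deposited table, and biotypes from GENCODE M21.

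Protein-coding genes entered the quasi-likelihood test of edgeR 4.0.16 (R 4.3.3, TMM, minimum count 10, minimum total 15), each time on its own 6 libraries and changes of effect on 12, without covariates, two-sided, at a Benjamini-Hochberg adjusted p below 0.05 over all genes tested. Errors of log2 fold changes are standard errors from the F statistic and intervals are 95%. CPM are TMM-scaled. Totals of 18188636 to 38974885 counts gave at least 89 counts for every member. Alternatives were DESeq2 1.42.0, relative log expression factors, no filter or a mean of 1 CPM, all biotypes, all 30 libraries in 1 fit, limma 3.58.1 on log2(FPKM + 1) and log2(FPKM + 0.1), a log2 fold change beyond 1, a replicate block and leaving out each library, and GC offsets chosen after the data were seen.

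The members and lists were chosen by name, without a threshold on measured values, but with earlier results of these data known. Named were all members, *Axin2*, up to 3 called genes per further list and comparison with the largest change and groups that did not overlap, *Vegfa*, *Angpt1*, *Angpt2*, *Flt4*, *Erg*, *Fli1*, *Sox7*, *Sox18* and *Pdgfrb*, and the 10 genes most like the members.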

Additional observations from a re-analysis of the deposited data

Results flagged for a closer look

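The effect of C59 on 5 members differed between neighbouring time points by the treatment by time term of edgeR (12 libraries each, Benjamini-Hochberg adjusted). From 1 to 6 h, the log2 effect on *Tek* changed by -0.38 (adjusted p = 0.0253) and that on *Flt1* by 0.33 (adjusted p = 0.0207). From 6 to 12 h, the effect on *Pecam1* changed by 0.37 (adjusted p = 0.00434), on *Cdh5* by 0.42 (adjusted p = 0.000915), on *Tek* by 0.37 (adjusted p = 0.039) and on *Tie1* by 0.40 (adjusted p = 0.0115). From 18 to 24 h, the effect on *Tie1* changed by -0.64 (adjusted p = 0.0418). Of all genes tested, 13.0%, 18.1% and 6.96% passed this term from 1 to 6, 6 to 12 and 18 to 24 h. With each of the 12 libraries left out in turn, the call of *Tek* from 1 to 6 h was lost in 7 fits and that of *Flt1* in 3. Those of *Tek* from 6 to 12 h and *Tie1* from 18 to 24 h were lost in 8 of 12.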

How the results depend on the processing

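The 12 h count of 5 members, all higher, and the 6 to 12 h count of 4 kept within 1.5 times of their values under every alternative but a log2 fold change beyond 1, under which all counts were 0 (6, 12 and 24 h, 1 to 6, 6 to 12 and 18 to 24 h, DMSO and C59 24 h against 1 h). No log2 fold change of a called member changed sign. At 6 h (2 members), DESeq2 gave 1, and all 30 libraries in 1 fit and limma on log2(FPKM + 1) or log2(FPKM + 0.1) gave 0. At 24 h (1 member), the 30-library fit and both limma fits gave 0 and GC offsets 3. At 18 h (0 members), the 30-library fit gave 4 and GC offsets 1. For 1 to 6 h (2 members), the 30-library fit and both limma fits gave 0. For 12 to 18 h (0 members), DESeq2, the 30-library fit and GC offsets gave 2 and both limma fits 1. For 18 to 24 h (1 member), DESeq2, the 30-library fit and GC offsets gave 2 and limma on log2(FPKM + 1) gave 0. For DMSO 24 h against 1 h (6 members), the 30-library fit gave 3 and both limma fits 1. Leaving out 1 library gave 1 to 3 members at 6 h, 0 to 3 at 24 h, 0 to 2 for 1 to 6 h, 0 to 2 for 12 to 18 h and 0 to 2 for 18 to 24 h. The cause of these differences was not tested.

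Equal replicate numbers did not pair libraries: the correlation of their deviations ran from -0.133 to 0.103 over 15 pairs, with 1 over 0.1, and 9 of 30 libraries correlated best with their own number. With a replicate block the count was 1 at 6 h and 0 for 18 to 24 h, and in every other comparison it stayed within 1.5 times of the count without the block. Of the single log2 fold changes under alternatives, 1870 values kept their side of the threshold, 83 were no longer past it and 47 were newly past it. Values that did not pass in either fit were not compared for direction, and some changed sign.

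With 3 libraries a group and 89 to 209 counts, *Sox17* had standard errors of 0.14 to 0.16 on the log2 scale for C59 against DMSO, and a change within its interval was not detectable at this depth and replication.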
